A study of Homo sapiens with 17 samples.

Results

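The subject is the set of nuclear genes that encode the subunits of the 5 oxidative phosphorylation complexes. Members were the gene symbols of the NDUFA, NDUFB, NDUFC, NDUFS and NDUFV series, SDHA to SDHD, and those beginning with UQCR, COX4 to COX8 or ATP5, with at least 10 reads summed over 12 RNA libraries. In all, 90 of 23230 genes matched by symbol and 86 were members, 38 of them of complex I, 4 of complex II, 9 of complex III, 16 of complex IV and 19 of complex V. By known role, 74 of the members are structural subunits, 5 are isoforms used in other tissues or states, 3 are near-identical copies and 4 share a symbol but are not subunits. The 4 symbols under the minimum were COX4I2, COX8C and the readthrough genes ATP5J2-PTCD1 and NDUFC2-KCTD14. The nearest symbols to the minimum were ATP5EP2, with 11 reads, and COX8C, with 5 reads.

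The cells were abl (LNCaP-abl), a subline that grows without androgen, and LNCaP, the androgen-dependent human prostate cancer line it came from. Each line received an siRNA against the cyclic-AMP-responsive factor CREB1 (siCREB1), an siRNA against the pioneer factor FOXA1 (siFOXA1) or a control siRNA (siControl), each given at 40 nM and left on for 3 days, with 5% charcoal-stripped serum in the medium. Before treatment abl (passages 62 to 64) grew in 10% charcoal-stripped serum and LNCaP (passages 32 to 34) in 10% serum, so line and culture history cannot be told apart. Each of the 6 groups holds 2 libraries, and the labels do not say whether they came from separate cultures, so p-values measure the spread between these libraries, which may be technical.

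Oxidative phosphorylation takes place in the inner mitochondrial membrane. Complex I oxidises NADH and complex II oxidises succinate, and both pass electrons through ubiquinone to complex III, cytochrome c and complex IV, where oxygen is reduced to water. Complexes I, III and IV pump protons, and complex V, the ATP synthase, uses the gradient to make ATP. Most subunits come from nuclear genes and a few from mitochondrial DNA, while complex II is wholly nuclear. Normal prostate epithelium is known for exporting citrate rather than oxidising it, and prostate cancer cells are known for a more active citric acid cycle and respiration.

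Reads assigned to genes ranged between 9092597 and 37314039 per library, both extremes in abl siControl. The siRNA targets were lowered in every knockdown group, with CREB1 kept at 56.9% of the siControl level in abl and 41.2% in LNCaP, and FOXA1 at 40.0% and 28.5%. CREB1 also fell under siFOXA1, by 0.44 ± 0.09 on the log2 scale in abl (SE, edgeR adjusted p = 0.00114) and by 0.44 ± 0.09 in LNCaP (adjusted p = 0.00126). All 12 luminal prostate markers had reads in every library, at a summed 4190 to 5550 CPM (the depth-scaled read count, after TMM). Not all were high: KLK3 was at 0.111 to 0.994 CPM in abl and 16.1 to 87.4 CPM in LNCaP. KLK2 was at 0.663 to 6.27 CPM over all libraries. A list of 8 blood and neutrophil markers summed to 0.657 to 8.31 CPM and stood higher in the first siControl library of abl (8.31, against 2.34 in the second) and of LNCaP (6.57, against 1.15), while the knockdown libraries reached 6.62. The sums held different genes. CSF3R had 87 reads in the first abl and 76 in the first LNCaP siControl library, and at most 2 elsewhere. S100A8 had 20 and 20 there, and at most 1 elsewhere. S100A9 held 4.41 of the 6.62 CPM, in an abl siFOXA1 library. CD3E was at 0 in every library but the first of abl siControl, and the part of these markers in the results was not tested. The 4 endothelial markers summed to 3.37 and 2.79 CPM with siFOXA1 and 12.3 and 16.7 CPM with siCREB1, against 31.5 and 28.8 CPM with siControl in LNCaP, and to at most 1.61 CPM in abl. In LNCaP the sum followed VWF alone, which had 30.7 and 27.7 CPM with siControl. PECAM1, KDR and CDH5 were each at 0.897 CPM or less in every library. The 6 basal markers summed to 139 and 135 CPM with siFOXA1 and 76.3 and 66.4 CPM with siCREB1, against 95 and 82.6 CPM with siControl in abl. In LNCaP they summed to 58.7 and 62.9 CPM with siFOXA1 and 33.7 and 34.3 CPM with siCREB1, against 48.1 and 42.3 CPM with siControl. DST made up most of these sums, with 130 and 123 CPM under siFOXA1 against 79.9 and 67.6 CPM under siControl in abl. ITGB4 went the other way there, with 8.96 and 12.3 CPM against 15.1 and 14.9 CPM. KRT5, KRT14, KRT15 and TP63 were at 1.01 CPM or less in every library. The 6 fibroblast markers summed to 11.2 to 22.1 CPM in abl and 59.7 to 99.0 CPM in LNCaP, with COL1A2 at 0 in every library. COL1A1 made up most of that, with 8.36 to 16.7 CPM in abl and 53.4 to 96.2 CPM in LNCaP. The part of these markers in the results was not tested either. Counts of members called without the first siControl libraries are given beside the comparisons with siControl, the line comparison and the differences between lines.

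Knockdown of FOXA1 in abl gave the broadest change. All 74 structural subunits rose in siFOXA1 over siControl cells of that line, with a median log2 fold change of 0.89, which is a fold of 1.85. Called means a Benjamini-Hochberg adjusted p below 0.05 over all tested genes in edgeR's quasi-likelihood test. The share of all 15550 tested genes that rose in that comparison was 29.9%, with a median log2 fold change of 0.03, and 38.5% rose among the 6522 genes whose log2 CPM averaged 5 or more. Of the 81 members tested, 76 rose, 2 fell (26.5% of all tested genes fell) and 3 were not called, and without the first abl siControl library 73 rose. In bulk RNA more transcript per cell cannot be told apart from more cells that hold it, and CPM gives a share of the library. Members took up 1.69% and 1.76% of assigned reads in abl siFOXA1 libraries, against 1.02% and 1.01% in abl siControl libraries.

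By complex, the median log2 fold change of structural subunits under siFOXA1 in abl was 0.95 for complex I, 0.61 for complex II, 0.97 for complex III, 0.89 for complex IV and 0.84 for complex V. Complex II had the lowest value in both libraries: its median deviation from the siControl mean was 0.58 and 0.65, while those of the other 4 complexes lay between 0.84 and 0.98. Differences between complexes were not tested. Single structural subunits of complex I ranged from 0.26 for NDUFV3 to 1.71 for NDUFB8, and single values spread more than medians do.

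Within complex I, an L-shaped enzyme, the tip of the arm in the matrix (the N module) takes electrons from NADH, the Q module passes them to ubiquinone, and the membrane arm (the P module) pumps protons. Under siFOXA1 in abl the 8 N-module subunits had a median of 0.58, against 0.97 for the 8 subunits of the Q module and 0.97 for the 20 of the P module. NDUFV1, which binds the NADH, rose by 0.54 ± 0.06 (edgeR adjusted p = 3.25e-06), and NDUFV3 had the smallest rise of the complex at 0.26 ± 0.07 (adjusted p = 0.00807).

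NDUFB8, an accessory subunit of the membrane arm, had 103 and 100 CPM in abl siFOXA1 libraries and 76.1 and 83.3 CPM in abl siCREB1 libraries, against 31 and 31.3 CPM in abl siControl libraries. It had 67.3 and 65.9 CPM in LNCaP siFOXA1 libraries and 61.3 and 61.2 CPM in LNCaP siCREB1 libraries, against 41.8 and 46.8 CPM in LNCaP siControl libraries. Each knockdown group lay above its control with no overlap, and abl siFOXA1 was highest. The log2 fold change in abl was 1.71 ± 0.07 under siFOXA1 (edgeR adjusted p = 4.69e-10), the largest rise of any member there, and 1.36 ± 0.07 under siCREB1 (adjusted p = 7.14e-09).

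SDHA, the flavoprotein that binds succinate in complex II, had 142 and 142 CPM in abl siFOXA1 libraries and 134 and 140 CPM in abl siCREB1 libraries, against 75.1 and 72.5 CPM in abl siControl libraries. Its rise was 0.94 ± 0.06 under siFOXA1 (edgeR adjusted p = 1.95e-08) and 0.89 ± 0.06 under siCREB1 (adjusted p = 6.3e-08). In complex III the small subunit UQCR10 had 190 and 192 CPM with siFOXA1 and 160 and 162 CPM with siCREB1, against 77.6 and 70.5 CPM with siControl in abl. UQCR10 led its complex in all 4 knockdown comparisons. The core protein UQCRC1 rose less, by 0.70 ± 0.06 under siFOXA1 in abl (edgeR adjusted p = 1.47e-07).

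COX6B1, which faces the intermembrane space in the complex IV dimer, had 284 and 289 CPM in abl siFOXA1 libraries and 233 and 230 CPM in abl siCREB1 libraries, against 101 and 104 CPM in abl siControl libraries. Its rises were 1.48 ± 0.06 (edgeR adjusted p = 2.64e-10) and 1.17 ± 0.06 (adjusted p = 3.66e-09), the highest of the 10 structural subunits that the symbols place in complex IV. The proton-conducting ring of ATP synthase is built from subunit c, which ATP5G1, ATP5G2 and ATP5G3 all encode with different import sequences. ATP5G1 had 84.4 and 91.5 CPM with siFOXA1 and 53.5 and 56.6 CPM with siCREB1, against 29.1 and 26.9 CPM with siControl in abl. Its rise under siFOXA1, 1.64 ± 0.09 (edgeR adjusted p = 3.83e-09), was the largest of complex V, while ATP5G2 rose by 0.20 ± 0.07 (adjusted p = 0.0309) and ATP5G3 by 0.82 ± 0.06 (adjusted p = 3.54e-08).

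**Figure D1:**
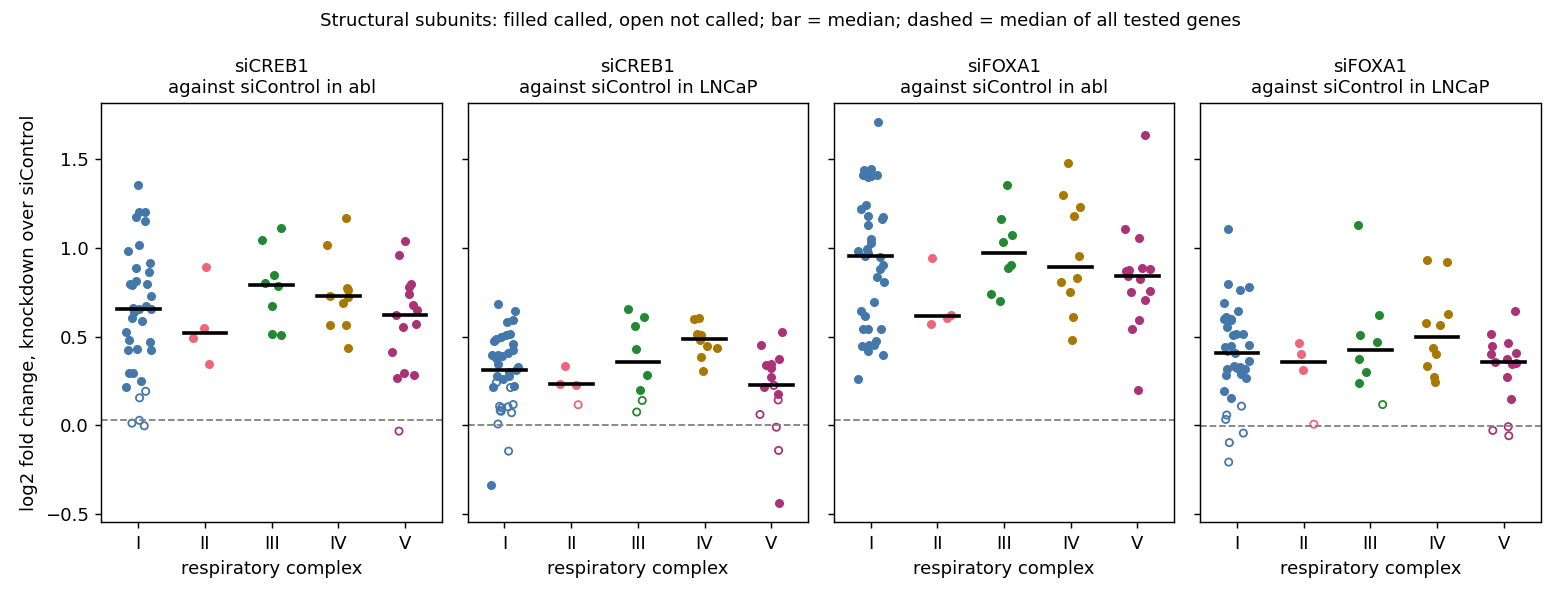
Log2 fold change of knockdown over siControl (y axis) for the 74 structural subunits, by respiratory complex (x axis), 1 panel per comparison; filled points were called, open points were not, bars are medians and the dashed line is the median of all tested genes. Every subunit was called higher with siFOXA1 in abl, and the 2 called lower, NDUFB5 and ATP5B, stand in the panel of siCREB1 in LNCaP.

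Knockdown of CREB1 in abl raised 68 of 74 structural subunits and lowered none, with a median log2 fold change of 0.66. Of all tested genes 27.5% rose in that comparison and the median was 0.03, and 37.2% rose among genes whose log2 CPM averaged 5 or more. All 4 subunits of complex II rose, as did 8 of 8 in complex III, 10 of 10 in complex IV, 32 of 37 in complex I and 14 of 15 in complex V. Of the 81 members tested, 71 rose and 2 fell (23.7% of all tested genes fell), and without the first abl siControl library 70 rose. The 6 structural subunits not called were ATP5B, NDUFA5, NDUFB5, NDUFC2, NDUFS1 and NDUFS8, the last an iron-sulfur subunit of the Q module with 0.19 ± 0.11 (edgeR adjusted p = 0.173). NDUFS5, a membrane-arm subunit on the intermembrane-space side, rose by 1.21 ± 0.06 (edgeR adjusted p = 3.1e-09) and the Q-module subunit NDUFA7 by 1.204 ± 0.062 (adjusted p = 4.67e-09). The f subunit of ATP synthase, ATP5J2, led complex V with 1.04 ± 0.08 (adjusted p = 1.63e-07). Rises of at least 1 on the log2 scale were called for 11 of 74 structural subunits under siCREB1 and 26 of 74 under siFOXA1 in abl, where 3.96% and 6.61% of all tested genes had such a rise.

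In LNCaP the rises were smaller. Under siFOXA1 62 of 74 structural subunits rose and none fell (median 0.40), where 24.4% of all tested genes rose and the median was -0.01. Of the 81 members tested 63 rose and 2 fell there (25.5% of all tested genes fell), and 61 rose without the first LNCaP siControl library. Under siCREB1 53 of the 74 rose and 2 fell (median 0.32), where 17.8% of all tested genes rose, 19.8% fell and the median was 0.00. Of the 81 members 54 rose under siCREB1, 53 without that library. Of genes whose log2 CPM averaged 5 or more, 30.5% rose under siFOXA1 and 24.7% under siCREB1 in LNCaP. All 10 structural subunits of complex IV rose in both LNCaP comparisons, and complex V had the smallest share under siCREB1, with 9 of 15 higher and 1 lower.

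UQCR10 had 144 and 133 CPM with siFOXA1 and 98.4 and 101 CPM with siCREB1, against 61.9 and 64.9 CPM with siControl in LNCaP. Its log2 fold change was 1.13 ± 0.07 under siFOXA1 (edgeR adjusted p = 1.4e-08) and 0.65 ± 0.07 under siCREB1 (adjusted p = 7.18e-06). NDUFA4, named as a complex I gene but now known as a complex IV subunit, had 468 and 445 CPM with siFOXA1 and 339 and 342 CPM with siCREB1, against 210 and 215 CPM with siControl. It rose by 1.10 ± 0.06 (edgeR adjusted p = 4.01e-09) and 0.68 ± 0.06 (adjusted p = 1.18e-06). UQCR10 and NDUFA4 were the structural subunits called with at least 1 on the log2 scale in LNCaP, both under siFOXA1, where 5.16% of all tested genes were.

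Other leading members in LNCaP differed by knockdown. COX7B, a small transmembrane subunit of complex IV, rose by 0.94 ± 0.07 under siFOXA1 (edgeR adjusted p = 1.78e-07). SDHD, which anchors complex II in the membrane, led its complex there with 0.46 ± 0.07 (adjusted p = 0.000122). Under siCREB1 the N-module subunit NDUFA2 rose by 0.64 ± 0.07 (edgeR adjusted p = 1.5e-05). ATP5E, the small epsilon subunit of ATP synthase, led complex V there with 0.53 ± 0.07 (adjusted p = 8.05e-05).

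Across the 4 knockdown comparisons 50 of the 81 tested members rose in every comparison, as did 5.90% of all tested genes. The siCREB1 and siFOXA1 comparisons of a line share its siControl libraries, so these calls are not independent. Between lines, whose controls are separate, 53 members rose under siCREB1 in both, which is 53 of 71 in abl and 53 of 54 in LNCaP, and 11.4% of all tested genes did so. Under siFOXA1 63 members rose in both, which is 63 of 76 in abl and 63 of 63 in LNCaP, and 15.6% of all tested genes did so. No member was called in opposite directions in the lines under the same siRNA.

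**Figure D2:**
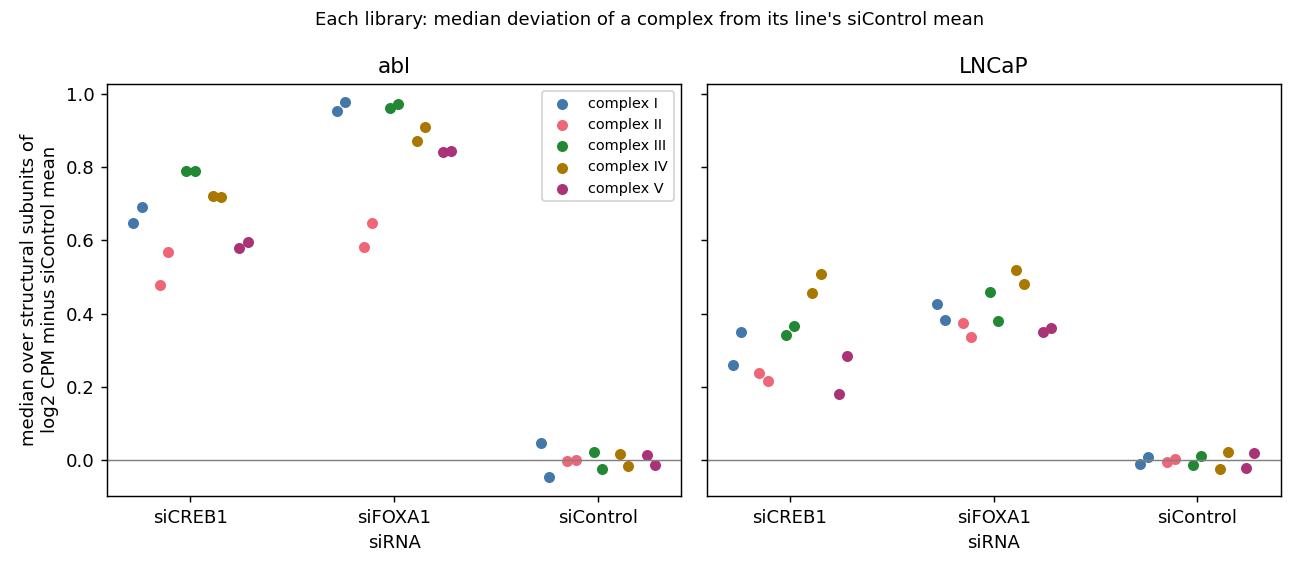
Median over the structural subunits of each complex (colours) of the log2 CPM of 1 library minus the siControl mean of its line (y axis), by siRNA (x axis), with abl on the left and LNCaP on the right. Both knockdown libraries of each group lie above both siControl libraries for each complex, and complex II is lowest in abl siFOXA1, at 0.58 and 0.65.

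The start-site windows of the members were read for motifs, because CREB1 binds the cyclic-AMP response element (CRE) and many respiratory genes are known targets of NRF1, of ETS-family factors such as GABPA, and of YY1. RefSeq (GRCh38.p14) gave a window of 250 bases before to 50 bases after the start for 61 of the 74 structural subunits, and for 27305 promoters in all. Both strands were searched. The full CRE (TGACGTCA) was in 5 of 61 windows (8.20%, against 1.98% of all promoters). The NRF1 motif, shown in capitals in the SDHA sequence with any letter allowed at its sixth base, was in 15 (24.6%, against 6.28%), the ETS motif CCGGAAG in 19 (31.1%, against 10.7%) and the YY1 motif AAGATGGC in 11 (18.0%, against 3.03%). The forkhead motif TGTTTAC was in 0 of 61, which for so few windows is near the 3.41% of all promoters. A match is a run of letters and not a measured site. The promoters in all were not limited to genes tested here, so these shares do not compare the subunits with like genes.

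The holders of the full CRE were the subunit c gene ATP5G1, the ATP synthase e subunit gene ATP5I, the complex I genes NDUFA10 and NDUFB2, and SDHB, whose element crosses the start site. The part before the start site is printed for the first 4, with the CRE in capitals, and for SDHA because its window holds 4 NRF1 motifs, also in capitals. Sequences run 5′ to 3′ on the gene's strand.
ATP5G1 (chr17:48892704-48892763, plus strand): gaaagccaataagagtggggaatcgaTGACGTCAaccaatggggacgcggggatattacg
ATP5I (chr4:674401-674460, minus strand): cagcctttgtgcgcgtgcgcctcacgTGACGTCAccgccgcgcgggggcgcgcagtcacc
NDUFA10 (chr2:240025357-240025416, minus strand): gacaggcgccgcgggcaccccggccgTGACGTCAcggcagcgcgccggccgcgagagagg
NDUFB2 (chr7:140696629-140696688, plus strand): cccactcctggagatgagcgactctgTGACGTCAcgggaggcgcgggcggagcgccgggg
SDHA (chr5:218147-218316, plus strand): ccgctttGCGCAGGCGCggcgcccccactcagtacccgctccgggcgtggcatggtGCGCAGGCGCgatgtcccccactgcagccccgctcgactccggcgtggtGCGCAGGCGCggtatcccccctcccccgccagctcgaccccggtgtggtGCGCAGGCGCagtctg

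All 5 genes with a full CRE rose under siCREB1 in both lines, as did 53 of the 81 tested members and 11.4% of all tested genes. ATP5G1 had log2 fold changes of 0.96 ± 0.09 in abl and 0.35 ± 0.08 in LNCaP, and NDUFB2 of 0.98 ± 0.06 in abl and 0.52 ± 0.06 in LNCaP. For NDUFA10 they were 0.47 ± 0.06 in abl and 0.40 ± 0.06 in LNCaP, for ATP5I 0.65 ± 0.08 and 0.45 ± 0.07, and for SDHB 0.55 ± 0.06 and 0.34 ± 0.06 (edgeR adjusted p between 2.97e-08 and 0.00504 over these 10 values). Set beside the medians over structural subunits, 0.66 in abl and 0.32 in LNCaP, these 5 lie on both sides in abl and above it in LNCaP. The same 5 genes also rose under siFOXA1 in both lines, as did 63 of the 81 tested members and 15.6% of all tested genes.

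A few members went against the general direction. ATP5B encodes the catalytic beta subunit of ATP synthase. It had 1480 and 1520 CPM in abl siCREB1 libraries and 2440 and 2570 CPM in abl siFOXA1 libraries, against 1570 and 1500 CPM in abl siControl libraries. In LNCaP it had 900 and 1020 CPM with siCREB1 and 1560 and 1590 CPM with siFOXA1, against 1320 and 1290 CPM with siControl. With siCREB1 it fell by 0.44 ± 0.07 on the log2 scale in LNCaP (edgeR adjusted p = 0.000229) and had a change of -0.03 ± 0.07 in abl (adjusted p = 0.707). With siFOXA1 it rose, by 0.70 ± 0.07 in abl (adjusted p = 1.01e-06) and 0.27 ± 0.07 in LNCaP (adjusted p = 0.00421).

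NDUFB5, an accessory subunit of the membrane arm of complex I, had the same sequence of calls. Its level was 50.3 and 52.3 CPM with siCREB1 and 114 and 114 CPM with siFOXA1, against 51.0 and 50.8 CPM with siControl in abl. In LNCaP it was 43.7 and 42.5 CPM with siCREB1 and 79.0 and 75.9 CPM with siFOXA1, against 54.6 and 54.3 CPM with siControl. It fell by 0.34 ± 0.06 under siCREB1 in LNCaP (edgeR adjusted p = 0.000632) and rose by 1.16 ± 0.06 under siFOXA1 in abl (adjusted p = 2.48e-09). ATP5B and NDUFB5 were the structural subunits called lower in any of the 4 knockdown comparisons.

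NDUFA4L2 is an isoform of NDUFA4 that hypoxia induces and that is known to lower complex I activity. It had 1.58 and 1.05 CPM with siCREB1 and 0.506 and 0.864 CPM with siFOXA1, against 5.67 and 7.24 CPM with siControl in abl. In LNCaP it had 5.16 and 5.33 CPM with siCREB1 and 3.54 and 3.17 CPM with siFOXA1, against 5.20 and 4.74 CPM with siControl. The knockdown libraries of abl were lowest, with 11 to 35 reads each. The gene fell by 3.16 ± 0.26 under siFOXA1 (edgeR adjusted p = 2e-07) and 2.24 ± 0.23 under siCREB1 (adjusted p = 2.45e-06) in abl. In LNCaP it fell by 0.58 ± 0.20 under siFOXA1 (adjusted p = 0.0246), and the change under siCREB1 was 0.07 ± 0.18 (adjusted p = 0.808).

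COX7A2L, known for joining complexes III and IV into supercomplexes, had 78.3 and 78.0 CPM with siCREB1 and 87.0 and 82.1 CPM with siFOXA1, against 104 and 104 CPM with siControl in abl. It fell by 0.42 ± 0.06 under siCREB1 (edgeR adjusted p = 5.7e-05) and 0.30 ± 0.06 under siFOXA1 (adjusted p = 0.000641) in abl, and was not called in LNCaP. ATP5SL, whose product is known as a complex I assembly factor and not as an ATP synthase subunit, had 15.8 and 16.2 CPM with siFOXA1 against 23.4 and 24 CPM with siControl in LNCaP. It fell by 0.56 ± 0.09 there (edgeR adjusted p = 0.000151) and rose by 0.35 ± 0.09 under siCREB1 in abl (adjusted p = 0.00571). COX4NB, which lies beside COX4I1 and encodes no respiratory subunit, rose by 0.34 ± 0.10 under siFOXA1 in abl (edgeR adjusted p = 0.00817), 0.55 ± 0.10 under siCREB1 in abl (adjusted p = 0.0003) and 0.28 ± 0.10 under siFOXA1 in LNCaP (adjusted p = 0.0259). ATP5S, an accessory factor named for ATP synthase, rose in abl by 0.29 ± 0.11 under siFOXA1 (adjusted p = 0.0354) and 0.33 ± 0.11 under siCREB1 (adjusted p = 0.0211). COX7B2, a relative of COX7B known from testis, had 7.11 and 5.62 CPM with siCREB1, against 2.64 and 2.11 CPM with siControl in LNCaP. It rose by 1.39 ± 0.22 (edgeR adjusted p = 0.000276), the largest rise of a tested member in that comparison.

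**Figure D3:**
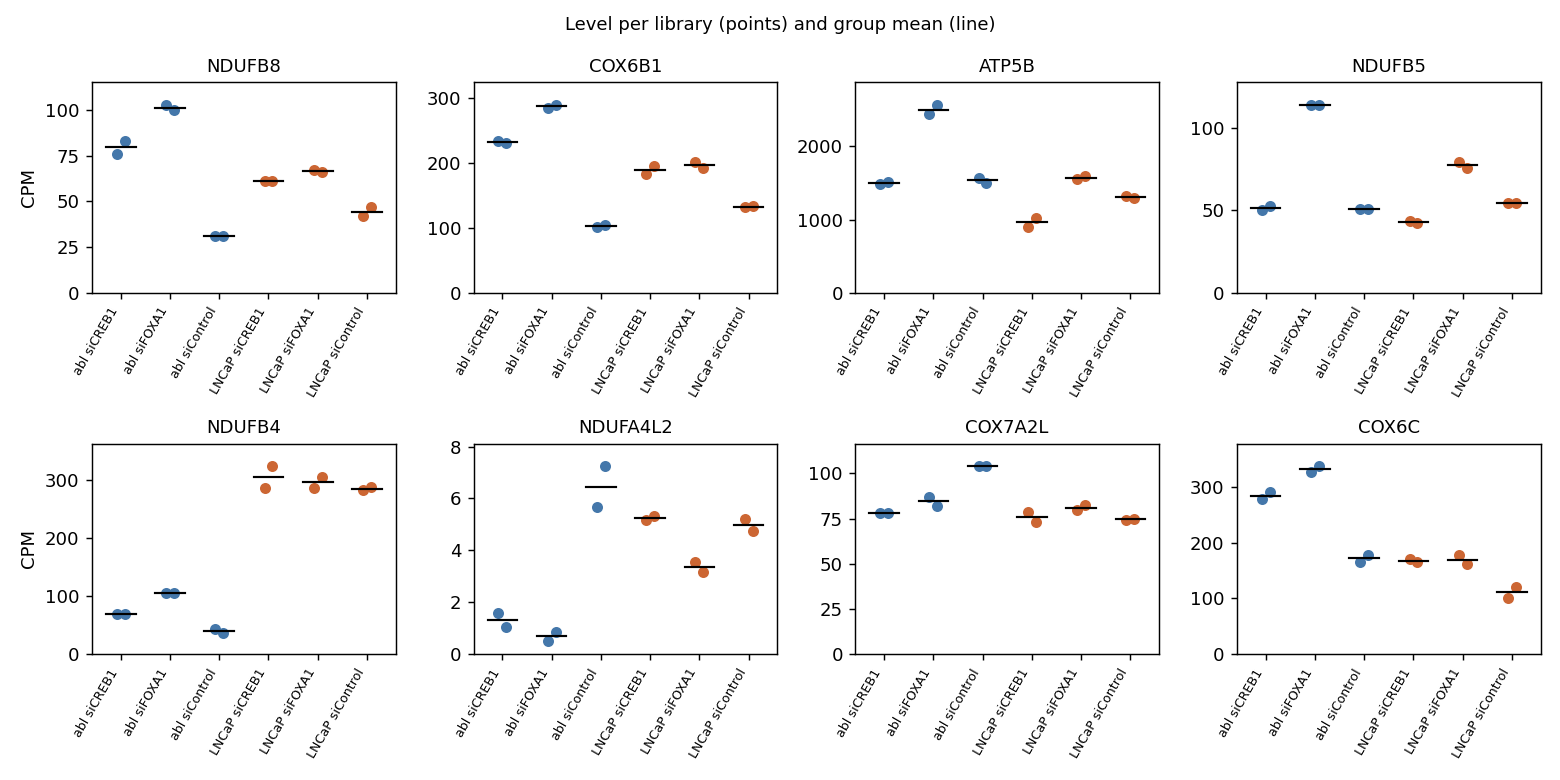
CPM per library (points, y axes starting at 0) and group mean (lines) for 8 members in the 6 groups, with abl in blue and LNCaP in orange. NDUFB8, COX6B1 and COX6C are above siControl in every knockdown library, ATP5B and NDUFB5 are above it in every siFOXA1 library but not in every siCREB1 library, and NDUFB4 is at 35.6 to 105 CPM in abl and at 283 to 324 CPM in LNCaP.

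The 2 knockdowns were also compared directly, without the control. In abl, siCREB1 cells had lower levels than siFOXA1 cells for 49 of 74 structural subunits and a higher level for 1, NDUFV2, with a median log2 difference of -0.25. Of all tested genes 21.0% were lower and 20% higher, with a median of -0.01. Complex I held 27 of the 49, complex V 10, complex III 6, complex IV 5 and complex II 1. In LNCaP 24 structural subunits were lower with siCREB1 and 4 higher (median -0.10), where 22.5% of all tested genes were lower and 20.6% higher. The 24 are 32.4% of the structural subunits, near the 27.1% that were lower among genes whose log2 CPM averaged 5 or more. The count of 24 was 13 without the first siFOXA1 library and 15 without the first siCREB1 library.

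NDUFB5 had the largest difference of the structural subunits in both lines, at -1.15 ± 0.06 for siCREB1 over siFOXA1 in abl (edgeR adjusted p = 6.64e-09) and -0.84 ± 0.06 in LNCaP (adjusted p = 7.27e-08). ATP5B followed, with -0.74 ± 0.07 in abl (edgeR adjusted p = 1.6e-06) and -0.71 ± 0.07 in LNCaP (adjusted p = 1.59e-06). COX5B, a zinc-binding subunit of complex IV, had 189 and 190 CPM with siCREB1 and 302 and 328 CPM with siFOXA1 in abl, a difference of -0.74 ± 0.10 (adjusted p = 5.01e-05). NDUFV2, an iron-sulfur subunit of the NADH-oxidising module, had 168 and 176 CPM with siCREB1 and 134 and 141 CPM with siFOXA1 in abl, a difference of 0.32 ± 0.06 (adjusted p = 0.000696).

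The effect of each knockdown was then compared between the lines by an interaction term in the same fit. The siFOXA1 log2 fold change was higher in abl than in LNCaP for 60 of 74 structural subunits and lower for none, with a median log2 difference of 0.47. Of all tested genes 17.9% had a higher effect in abl and the median was 0.05. The share was 30 of 37 in complex I, 3 of 4 in complex II, 7 of 8 in complex III, 7 of 10 in complex IV and 13 of 15 in complex V. The siCREB1 log2 fold change was higher in abl for 45 of 74 and lower for none (median 0.35), where 14.8% of all tested genes had a higher effect. Complex III had 7 of 8, complex V 11 of 15, complex I 20 of 37, complex IV 5 of 10 and complex II 2 of 4. Of genes whose log2 CPM averaged 5 or more, 25.4% had a higher siFOXA1 effect in abl and 21.6% a higher siCREB1 effect. Among tested members that are no structural subunit, 2 had a lower effect in abl under each siRNA, NDUFA4L2 and COX7A2L, where 14.7% of all tested genes did so for siFOXA1 and 10.8% for siCREB1. Without the first abl siControl library the siFOXA1 count was 61 and the siCREB1 count 42, and without the first LNCaP siControl library they were 54 and 40. Over all libraries left out in turn, the siFOXA1 count was 50 to 61 and the siCREB1 count 33 to 44.

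NDUFB4, an accessory subunit of the membrane arm, had the largest line difference of the structural subunits in its siFOXA1 effect, 1.34 ± 0.11 (edgeR adjusted p = 1.31e-06). It rose by 1.401 ± 0.084 in abl (adjusted p = 1.07e-08) and had a change of 0.06 ± 0.08 in LNCaP (adjusted p = 0.561). UQCRC2, a core protein of complex III, had 477 and 481 CPM with siFOXA1 and 409 and 409 CPM with siCREB1, against 256 and 257 CPM with siControl in abl. In LNCaP it had 292 and 293 CPM with siFOXA1 and 277 and 291 CPM with siCREB1, against 258 and 282 CPM with siControl. The difference between the lines was 0.79 ± 0.08 for siFOXA1 (edgeR adjusted p = 9.75e-06) and 0.60 ± 0.08 for siCREB1 (adjusted p = 0.000162).

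**Figure D4:**
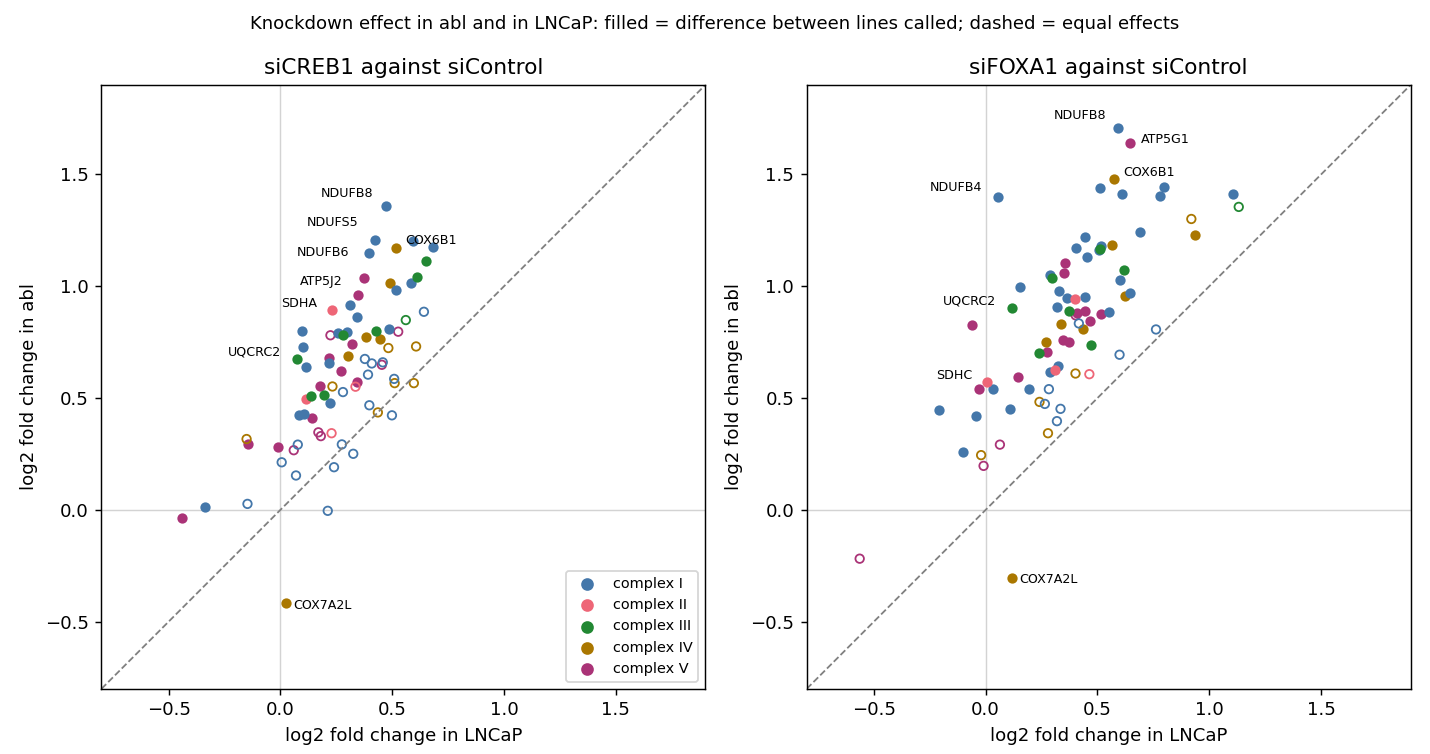
Log2 fold change of knockdown over siControl in abl (y axis) against that in LNCaP (x axis) for 79 tested members, siCREB1 on the left and siFOXA1 on the right; filled points had a called difference between the lines and the dashed line marks equal effects. Most points lie above the line; NDUFA4L2 and COX7B2 are not drawn.

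Under siControl the lines did not differ in 1 direction. In abl 23 of 74 structural subunits were higher than in LNCaP, 26 were lower and 25 were not called, with a median log2 difference of -0.07. Of all tested genes 30.5% were higher and 33.1% lower, so the members' shares were near those of all genes. Of the 81 members tested, 24 were higher and 28 lower, against 19 and 26 without the first abl siControl library and 22 and 24 without the first LNCaP siControl library. By complex, 9 were higher and 16 lower in complex I, 1 and 2 in complex II, 2 and 3 in complex III, 5 and 1 in complex IV, and 6 and 4 in complex V. Of the 20 P-module subunits of complex I, 4 were higher and 11 lower. These libraries are also the controls of the knockdown and interaction comparisons, so their values enter those as well.

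NDUFB4 differed most among the structural subunits. It had 42.4 and 35.6 CPM in abl siControl libraries, against 283 and 288 CPM in LNCaP siControl libraries, a log2 difference of -2.85 ± 0.08 (edgeR adjusted p = 3.12e-12). Its levels were 69.8 and 68.2 CPM in abl siCREB1 libraries and 105 and 105 CPM in abl siFOXA1 libraries, so all 6 abl libraries lay below all 6 LNCaP libraries. NDUFB6, of the same arm, had 20.8 and 19.4 CPM in abl siControl libraries, against 37.1 and 36.0 CPM in LNCaP siControl libraries, a difference of -0.85 ± 0.08 (adjusted p = 3.91e-07). SDHA was lower in abl (-0.67 ± 0.06, adjusted p = 3.01e-07) while SDHD of the same complex was higher (0.63 ± 0.07, adjusted p = 3.61e-06).

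UQCRH, the acidic hinge protein of complex III, was lower in abl, with 112 and 115 CPM against 163 and 179 CPM in LNCaP under siControl (-0.59 ± 0.06, edgeR adjusted p = 1.11e-06). ATP5G1 was lower as well, with 29.1 and 26.9 CPM against 43.2 and 48.8 CPM (-0.70 ± 0.09, adjusted p = 1.08e-05). COX6C, a small subunit of complex IV, was higher in abl, with 165 and 178 CPM against 100 and 121 CPM (0.64 ± 0.08, adjusted p = 1.42e-05). COX6A1, also of complex IV, had 324 and 311 CPM in abl against 218 and 200 CPM in LNCaP (0.60 ± 0.07, adjusted p = 2.84e-06).

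**Figure D5:**
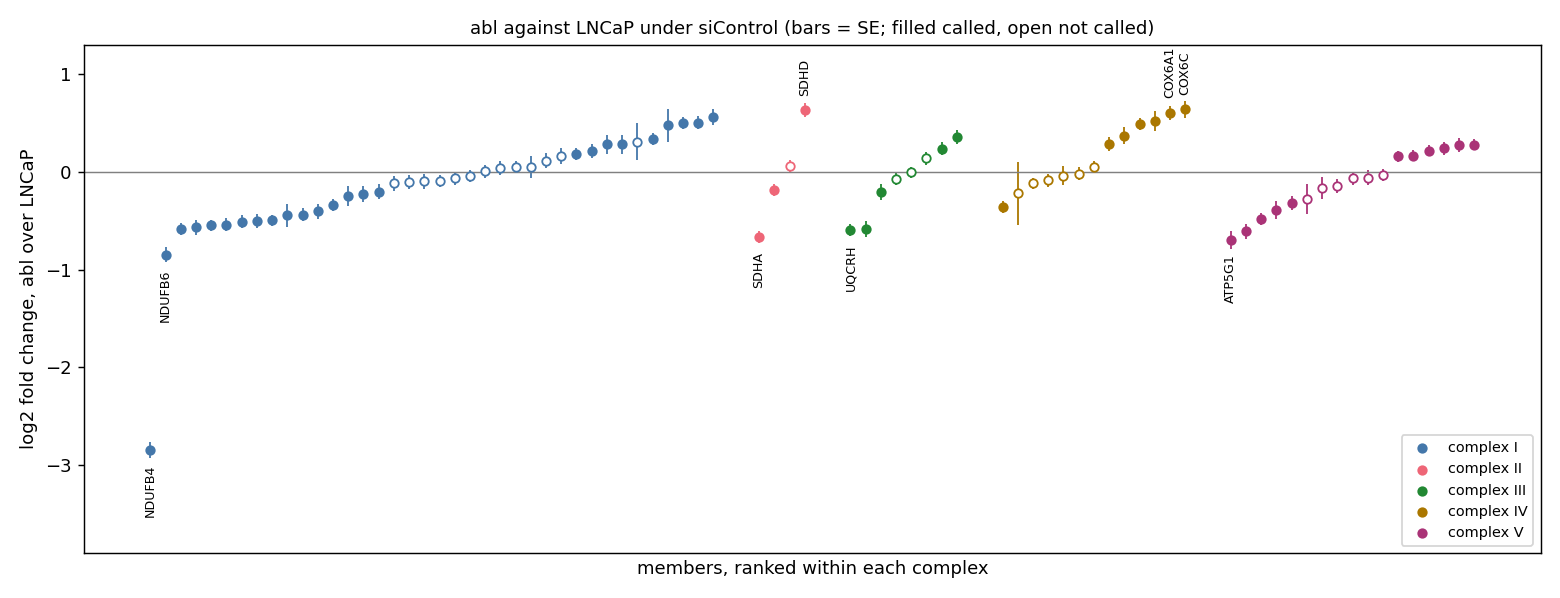
Log2 fold change of abl over LNCaP under siControl (y axis, bars are SE) for 80 tested members, ranked within each complex (x axis); filled points were called and open points were not. NDUFB4 lies lowest at -2.85, complex IV holds 5 structural subunits higher and 1 lower, and COX7B2 is not drawn.

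Isoforms and copies gave few reads. COX7B2 had 1 and 0 reads in abl siControl libraries, against 73 and 33 in LNCaP siControl libraries. The ratio of abl over LNCaP was 0.00908, with a 95% exact counting interval of 0.000228 to 0.0517 that covers counting error only. Its other abl libraries held 3 and 3 reads with siCREB1 and 2 and 0 with siFOXA1, and it was not called under either siRNA in abl. COX6B2, an isoform known from testis, had 6 to 28 reads per library and was called in none of the 4 knockdown comparisons (edgeR adjusted p between 0.44 and 0.964). COX6A2 and COX7A1, isoforms of heart and skeletal muscle, and the copies ATP5EP2, ATP5L2 and UQCRHL were too low to test, with at most 7 reads in any library. NDUFC2, ATP5J2, ATP5E, ATP5L and UQCRH are uncertain, since reads they share with readthrough genes or copies can be lost or split.

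Other genes of the same system were counted as well, and the mitochondrially encoded subunits were not analysed here. As background, 27.5% of all tested genes rose and 23.7% fell under siCREB1 in abl, and 17.8% and 19.8% in LNCaP. For siFOXA1 the shares were 29.9% and 26.5% in abl, and 24.4% and 25.5% in LNCaP. Of 6 further genes of the chain tested (CYC1, NDUFAB1, USMG5, C14orf2, ATPIF1 and CYCS), 5 rose under siCREB1 and 6 under siFOXA1 in abl, and 4 and 6 in LNCaP. USMG5, a small ATP synthase subunit, had 111 and 95.1 CPM with siFOXA1 against 54.9 and 61.0 CPM with siControl in LNCaP (0.83 ± 0.08, edgeR adjusted p = 1.29e-06). Of 40 assembly factors, 25 rose and 7 fell under siCREB1 in abl, 16 and 4 in LNCaP, and under siFOXA1 30 and 2 in abl, 22 and 3 in LNCaP. COX17, the copper chaperone of complex IV, rose by 1.08 ± 0.08 under siCREB1 in abl (edgeR adjusted p = 1.77e-07). TIMMDC1, an assembly factor of complex I, had 46.5 and 42.9 CPM with siCREB1 and 112 and 106 CPM with siFOXA1, against 93.6 and 86.9 CPM with siControl in abl. It fell by 1.02 ± 0.07 under siCREB1 there (adjusted p = 9.67e-08).

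Of 17 enzymes of the citric acid cycle, 16 rose under siCREB1 and 17 under siFOXA1 in abl, with 0 lower, and 8 and 9 rose in LNCaP with 1 lower in each. IDH3B, a subunit of the NAD-dependent isocitrate dehydrogenase, rose by 1.21 ± 0.07 under siFOXA1 in abl (edgeR adjusted p = 5.49e-09). The 19 regulators of mitochondrial biogenesis did not share 1 direction. With siCREB1, 7 rose and 7 fell in abl (27.5% and 23.7% of all tested genes), and 3 and 5 in LNCaP (17.8% and 19.8%). With siFOXA1, 7 rose and 5 fell in abl (29.9% and 26.5% of all tested genes), and 9 and 2 in LNCaP (24.4% and 25.5%). Their siCREB1 counts in LNCaP and their siFOXA1 counts in abl were near the shares of all tested genes. Their siCREB1 counts in abl were near the 37.2% higher and 31.2% lower among genes whose log2 CPM averaged 5 or more. NRF1, the factor whose motif stands in the SDHA promoter, had 16.7 and 17.2 CPM with siCREB1 and 13.9 and 15.2 CPM with siFOXA1, against 66.0 and 77.9 CPM with siControl in abl. It fell by 2.07 ± 0.09 under siCREB1 (adjusted p = 1.42e-09) and 2.29 ± 0.10 under siFOXA1 (adjusted p = 3.86e-10), and in LNCaP all 6 libraries held 17.6 to 19.5 CPM. Its part in the rise of the subunits was not tested. Of 12 tested antioxidant and uncoupling genes, 6 rose and 1 fell under siCREB1 in abl, and 4 rose and 2 fell in LNCaP. With siFOXA1 10 of them rose and 0 fell in abl, and 4 rose and 1 fell in LNCaP. The shares of all tested genes given with the regulators are also the background of the citric acid cycle and antioxidant counts.

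Other large protein complexes, chosen after their values were seen, were counted in the same way. Of all tested genes 29.9% rose under siFOXA1 and 27.5% under siCREB1 in abl. In LNCaP 24.4% rose and 25.5% fell under siFOXA1, and 17.8% rose under siCREB1. Under siFOXA1 in abl 76 of 81 oxidative phosphorylation members rose (median 0.87), with 59 of 80 cytosolic ribosomal protein genes (0.36), 61 of 76 mitochondrial ribosomal protein genes (0.48) and 28 of 37 proteasome subunit genes (0.31). Under siCREB1 in abl 71 of 81 members rose (0.65), with 75 of 80 cytosolic ribosomal (0.56), 58 of 76 mitochondrial ribosomal (0.43) and 15 of 37 proteasome genes (0.07). Under siFOXA1 in LNCaP 63 of 81 members rose (0.37), with 7 of 80 cytosolic ribosomal genes, of which 19 fell (-0.07), 53 of 76 mitochondrial ribosomal (0.33) and 21 of 37 proteasome genes (0.24). Under siCREB1 in LNCaP 54 of 81 members rose (0.30), with 47 of 80 cytosolic ribosomal (0.23), 38 of 76 mitochondrial ribosomal (0.23) and 7 of 37 proteasome genes (0.00). The proteasome count under siCREB1 in LNCaP was near the share of all tested genes. In abl the proteasome count under siCREB1 was near the 37.2% that rose among genes whose log2 CPM averaged 5 or more. Differences between these families were not tested.

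The authors' deposited table of siFOXA1 against siControl in abl lists 78 members, 76 of them higher and 2 lower, and that of siCREB1 lists 73, with 71 higher and 2 lower. For LNCaP the authors' deposited tables list 63 members under siFOXA1, 61 higher and 2 lower, and 49 under siCREB1, 47 higher and 2 lower. Each listed member had the same sign in the fit used here.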

How the data were processed

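RNA was sequenced from 6 samples of the series' 17, each with 2 columns of counts per gene, taken as 2 libraries. The authors deposited these counts. Tools named in the submitters' processing notes are HTSeq 0.5.3p9, TopHat2 2.0.8 with Bowtie2 2.1.0, and CASAVA 1.8, and the build is hg19. The library kit, per the labels' protocols, does not mark strand, and which gene annotation was counted is not given in the sources used here. Log2 fold changes and p-values in the authors' deposited tables are tied to edgeR 3.0.6 by the same notes. Lines that name no gene (no feature 54.85% to 58.25%, ambiguous 0.77% to 0.92%) were left out. All 12 libraries entered 1 fit in edgeR 4.0.16 (R 4.3.3) with TMM scaling, filterByExpr (15550 genes) and quasi-likelihood F-tests (6 residual degrees of freedom). The script was tested on simulated data. SE is the absolute log2 change over the square root of F. DESeq2 1.42.0, other scalings and filters, replicate blocks and leaving out each library were alternatives. All 8 repeated control columns were identical, and libraries of 1 group differed by more than sampling noise. Members and lists were chosen with earlier results of these data known. Named members are, per comparison, the 3 largest called rises and falls whose log2 CPM averaged 3 or more, and the largest called change of each complex; isoforms, copies and symbols of no subunit are always named, with the largest called rise and fall of each other list. Further members, and the ribosomal and proteasome families, were chosen after their values were seen. The 3 peak lists and 8 further ChIP-seq samples were not used here.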

Additional observations from a re-analysis of the deposited data

Results flagged for a closer look

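The effect of a knockdown differed between the lines, by the interaction term of the edgeR fit, for the named members that follow. For siFOXA1 the log2 fold change in abl minus that in LNCaP was 1.344 for NDUFB4, 1.115 for NDUFB8, 0.995 for ATP5G1, 0.904 for COX6B1, 0.785 for UQCRC2 and 0.566 for SDHC. It was -2.579 for NDUFA4L2 and -0.424 for COX7A2L. For siCREB1 it was 0.884 for NDUFB8, 0.781 for NDUFS5, 0.755 for NDUFB6, 0.662 for ATP5J2, 0.662 for SDHA, 0.655 for COX6B1 and 0.599 for UQCRC2. It was -2.308 for NDUFA4L2 and -0.441 for COX7A2L. The edgeR adjusted p lay between 1.31e-06 and 0.00187 over these values. The siCREB1 and siFOXA1 values of a line share its siControl libraries.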

How the results depend on the processing

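Under DESeq2, size factors or total counts in place of TMM, other filters, fits of the compared groups alone and the replicate block, all 511 values of single named members kept their direction and their side of the threshold. Without 1 library 348 of 352 did, and the other 4 were SDHD in siCREB1 against siFOXA1 (adjusted p 0.0534 to 0.141). Without 1 library, members higher under siFOXA1 numbered 73 to 76 in abl, against 76, and 56 to 61 in LNCaP, against 63. Under siCREB1 they numbered 65 to 71 in abl, against 71, and 47 to 53 in LNCaP, against 54. Members with a higher effect in abl numbered 50 to 61 for siFOXA1, against 60, and 33 to 44 for siCREB1, against 45. Members lower under siFOXA1 in LNCaP numbered 1 with DESeq2 and 1 to 2 without 1 library, against 2. Members lower with siCREB1 than with siFOXA1 in LNCaP numbered 13 to 21 without 1 library, against 24. The cause was not tested. With the library number as a replicate block, 76 members rose under siFOXA1 and 71 under siCREB1 in abl, and 62 and 54 in LNCaP. The block left the direct comparison of the knockdowns (3 members higher and 49 lower in abl, 7 and 24 in LNCaP) and the line comparison (24 and 28) as they were. Nothing in the labels ties equal numbers together, and same-numbered libraries deviated together unevenly: r over 10172 genes was -0.16 to 0.11 between knockdown and siControl of a line, 0.38 in abl and 0.33 in LNCaP between the knockdowns, and 0.52 between the siControl groups of the lines. With the LNCaP siControl numbers crossed, chosen after seeing the data, 61 and 54 rose. Peaks near start sites were not run, since start sites of the files' build were not used here. Low reads limit COX6B2, COX7B2 and NDUFA4L2, and 2 libraries a group limit every SE.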
